A study of Mus musculus with 62 samples.

Results

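The regions described here are the autosomal places in mouse blood progenitors that carried either H3K27me3 or H3K9me3, 2 histone marks of silent chromatin, at 8 weeks post induction (w.p.i.). They come from a deposited table whose name gives a genotype comparison for H3K27me3 but whose header sets 3 H3K27me3 libraries of Daxx F/F mice against 3 H3K9me3 libraries of Daxx +/+ mice. It is therefore a contrast of 2 marks. Mark and genotype cannot be told apart in it, so nothing below can be read as an effect of Daxx loss, or as free of one. A site was kept when the normalized counts of all 3 libraries of one mark lay above those of all 3 of the other. Below, a place that had, carried or was covered by a mark held such a site, whatever its level of the other mark. The rule was met by 220711 of 221471 autosomal sites listed there (99.7%), of 1987591 sites listed over all tables of the series. H3K27me3 was higher at 102779 sites (46.4%) and H3K9me3 at 117932 sites (53.2%). These shares, and the counts that chose the sites, are descriptions with no test, since the table holds only sites that had passed the authors' own test of the same contrast.

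The study followed haematopoietic stem and progenitor cells (HSPCs) after deletion of Daxx, a chaperone of the histone variant H3.3, and of the transcription factor Pu.1. HSPCs were taken from the bone marrow of C57BL/6 mice and enriched by magnetic sorting for cells that were lineage-negative and c-Kit-positive. The H3K27me3 mice were Daxx F/F Cre +/- and the H3K9me3 mice Daxx +/+ Cre +/-, so that both groups carried Cre and the same time had passed since induction. The labels do not name the Cre. The study crossed Daxx mice with Mx1-Cre, Rosa26-CreERT2 and Csf1r-Cre lines. Of these, Mx1-Cre, which pI:pC induces through interferon, was used for adult deletion followed over weeks, and it is not limited to blood cells. A lineage-negative, c-Kit-positive gate holds many progenitor types, so a site here is an average over them. In CUT&Tag an antibody tethers the Tn5 transposase to chromatin with a mark, and the DNA around it is cut, tagged and sequenced. The values are normalized counts, the reads of a library in a site divided by a constant of that library, and 1 read was worth between 0.826 and 1.28 normalized counts. The genotype labels could not be checked on these values, because the only listed site next to Daxx (chr17:33915601-33916500, mm10) lay just past the end of the gene, at the first start of Zbtb22.

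H3K27me3 is written by Polycomb repressive complex 2, which sits on CG-rich promoters that are not transcribed and keeps developmental genes off in cells that do not need them. H3K9me3 is written by enzymes such as Setdb1 and Suv39h, bound by HP1 proteins, and marks constitutive heterochromatin: satellite repeats around centromeres, retroelements and clusters of zinc-finger genes. Daxx itself works with Atrx to place H3.3 at heterochromatin.

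The following sequences, read from the RefSeq assembly GRCm38.p6, show the kinds of DNA that each mark covered. Each lies inside a site described below. The first pair are promoters within H3K27me3-higher sites at a Hox and a Pax gene, the 250 bases before the start of Hoxc4 (chr15:103034145-103034394, plus strand) and of Pax6 (chr2:105668646-105668895, plus strand). CG dinucleotides, where mammalian DNA is methylated and which cluster in CG islands, are in capitals.
Hoxc4 promoter: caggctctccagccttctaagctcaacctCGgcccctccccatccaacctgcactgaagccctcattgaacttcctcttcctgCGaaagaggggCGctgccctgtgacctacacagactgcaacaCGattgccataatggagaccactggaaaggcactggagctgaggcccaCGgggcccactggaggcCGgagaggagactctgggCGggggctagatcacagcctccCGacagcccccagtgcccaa
Pax6 promoter: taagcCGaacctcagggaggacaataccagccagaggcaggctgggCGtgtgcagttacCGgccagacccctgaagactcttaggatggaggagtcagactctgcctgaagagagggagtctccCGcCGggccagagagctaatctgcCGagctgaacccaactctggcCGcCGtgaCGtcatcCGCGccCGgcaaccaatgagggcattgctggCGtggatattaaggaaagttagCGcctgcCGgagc
The promoter of the zinc-finger gene Zfp981 (chr4:146514670-146514919, plus strand) lies in the H3K9me3-higher site with the largest gap at such a gene and has its CG dinucleotides in capitals too.
Zfp981 promoter: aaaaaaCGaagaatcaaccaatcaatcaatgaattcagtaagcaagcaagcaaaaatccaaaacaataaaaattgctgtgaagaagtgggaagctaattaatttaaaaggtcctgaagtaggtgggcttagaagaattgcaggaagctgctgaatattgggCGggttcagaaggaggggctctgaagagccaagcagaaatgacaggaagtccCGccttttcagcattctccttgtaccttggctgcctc
Its coding exon (chr4:146537264-146537503, plus strand) repeats the unit of a C2H2 zinc finger, and the capitals mark the word GGAGAGAAACCTTA, which encodes part of the linker between fingers and is the most frequent word of 14 bases in Zfp coding exons (341 times in 358 genes).
Zfp981 coding exon: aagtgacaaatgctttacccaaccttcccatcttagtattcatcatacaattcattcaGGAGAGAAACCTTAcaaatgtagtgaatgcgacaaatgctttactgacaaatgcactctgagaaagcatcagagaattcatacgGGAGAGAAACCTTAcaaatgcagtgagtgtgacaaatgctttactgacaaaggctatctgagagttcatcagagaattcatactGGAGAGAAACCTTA
The last sequence is the middle of the H3K9me3-higher site with the largest gap among those at least 95% repeat-masked, on chromosome 9 (chr9:3008781-3009020, plus strand), with CG in capitals.
Chromosome 9 satellite: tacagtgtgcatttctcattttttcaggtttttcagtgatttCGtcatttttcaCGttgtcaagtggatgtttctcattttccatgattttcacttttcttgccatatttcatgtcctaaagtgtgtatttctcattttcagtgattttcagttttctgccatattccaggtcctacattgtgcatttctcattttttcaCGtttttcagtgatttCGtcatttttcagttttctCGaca
Pax6 had 15 CG in its 250 bases and Hoxc4 8, and 27.8% and 43.5% of all 31396 promoters in the RefSeq table had as many or more. Zfp981 had 3, a number reached by 71.3% of promoters. Over all promoters on H3K27me3-higher sites (n = 10646) the median was 12 CG, over those on H3K9me3-higher sites (n = 1080) 2, and over those on neither 4. The linker word occurred 3 times in the 240 bases of the Zfp981 exon.

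The levels of each library show how the rule divided the sites. At H3K27me3-higher sites the medians of the 3 H3K27me3 libraries were 28.9, 27.6 and 29.6 normalized counts, and each H3K9me3 library had a median between 0 and 2.57. At H3K9me3-higher sites the H3K9me3 medians were 17.3, 24.6 and 18.6, and all 3 H3K27me3 medians were 0. Replicate 2 of H3K9me3 was the highest of its group at 53.8% of its sites. All 3 libraries of the other mark were at 0 at 21.7% of H3K27me3-higher and 33.9% of H3K9me3-higher sites. The depth of the libraries was 6952217 to 15472347 reads at listed autosomal sites, and within a group the median coefficient of variation over sites was 30.7% for H3K27me3 and 33.3% for H3K9me3. The mean of the higher mark was under 20 normalized counts at 31.3% and 48.8% of sites, where single reads weigh most. Of the sites not kept, 760 in all, 755 were separated once 1 library was left out, and the ranges of the 2 marks overlapped by a median of 1.15 counts. Among members, the gap between the lowest library of the higher mark and the highest of the other was under 1 count at 235 and 562 sites.

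**Figure D1:**
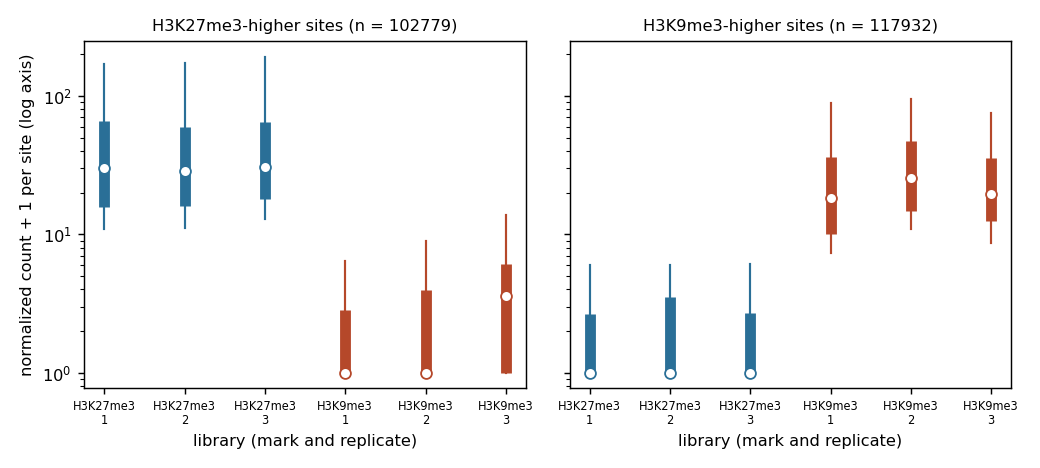
Normalized count plus 1 (log axis) of each library at H3K27me3-higher sites (left) and H3K9me3-higher sites (right). Circles are medians, thick bars span the 25th to 75th and thin lines the 10th to 90th percentile over sites. The 3 libraries of the higher mark have medians of 27.6 to 29.6 on the left and 17.3 to 24.6 on the right, and those of the other mark lie at or near 0.

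The territories were of similar extent but different shape. H3K27me3-higher sites covered 214 Mb (8.67% of the autosomes) and H3K9me3-higher sites 186 Mb (7.53%). The median length was 1100 and 1050 bp. The long sites were mostly H3K27me3, with 2723 sites of 10 kb or more against 841, and 32 of 50 kb or more against 17. Of the 32 wide H3K27me3-higher sites 4 held Hox genes, 9 held other developmental regulators of the list described below, and none held a Zfp gene. Of the 17 wide H3K9me3-higher sites 10 held Zfp genes and none held Hox or developmental genes. Sites of one mark followed each other along the chromosome: 92.3% of neighbouring pairs had the same mark. Within 5 kb the share was 97.5%, and 3859 pairs of opposite mark lay that close. When sites of one mark were joined across gaps of up to 5 kb without a site of the other, H3K27me3 formed 203 runs of 100 kb or more and H3K9me3 162.

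The longest H3K27me3 run was the Hoxc cluster (chr15:102727951-103153550, 426 kb, 96.1% of it covered). It was followed by the runs at Tead1 and Rassf10, at the neural factor Sox1, at the type II keratins from Krt6b to Krt78 (chr15:101671751-101958550, 287 kb) and at the kidney and eye factor Pax2. The longest H3K9me3 runs were longer and held few protein-coding genes, although they held other genes, mostly unnamed ones. Over all runs the median length was 3850 bp for H3K27me3 and 3200 bp for H3K9me3. The longest H3K9me3 run (chr12:21622951-22906150, 1283 kb) and the next (chr2:170953651-172035350, 1082 kb) held no protein-coding gene. On chromosome 12 there were 2 more, of 899 kb and 786 kb, whose protein-coding genes were Gm21863, Gm10330 and 9030624G23Rik. The fifth (chr4:152738051-153474750, 737 kb) held Ajap1, a gene of an adherens junction protein.

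Among the H3K27me3-higher sites with the largest gaps between the groups was a cluster of 15 transfer RNA genes beside Fcgr3 (chr1:171063201-171089200). Its H3K27me3 libraries were at 18923, 19734 and 15028 normalized counts and its H3K9me3 libraries at 904, 648 and 829. Reads of near-identical copies cannot be assigned to single genes, so this value belongs to the cluster. Over all annotated copies, 155 of 386 tRNA genes (40.2%) overlapped an H3K27me3-higher site and 4 an H3K9me3-higher one. Of protein-coding genes 50.5% and 19.4% did.

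Hox clusters, which set position along the body axis, were also among them. The Hoxc site (chr15:102898301-103052850, 155 kb) had 21782, 25818 and 32270 counts of H3K27me3 and 94.5, 210 and 495 of H3K9me3. The Hoxd site (chr2:74644651-74770000) was at 19012, 22194 and 25462 against 47.3, 169 and 264. Part of Hoxa (chr6:52206901-52284300) was at 13221, 15927 and 17939 against 58.2, 66.9 and 223. After these came Pax6, needed for the eye (12873, 13102 and 14955 against 21.8, 68.8 and 84.7), the microRNA gene Mir9-3, and Lhx2, Zic2 with Zic5, and Dlx1 with Dlx2, all transcription factors of the developing brain.

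The 5 largest gaps of H3K9me3 lay on sites more repeat-masked than the autosomal genome (33.5%). Not all of them exceeded the H3K9me3-higher base pairs as a whole (58.1%). One site on chromosome 2 (chr2:98661701-98672200, 10.5 kb) had 1548300, 2211519 and 1810390 counts of H3K9me3 and 41698, 24105 and 21962 of H3K27me3, and held 20.6% of all H3K9me3 counts at members. The H3K27me3 counts there were also of the order seen over the Hoxc cluster. The site was 63.8% repeat-masked and showed no clear tandem repeat, with 30.4% identity at its best shift of 58 bp against a median of 26.7%. Reads of a repeat can come from any of its copies, so such values need not belong to the place. On chromosome 9 the site chr9:2999451-3018350 was at 311678, 479131 and 382754 against 9868, 5372 and 5208. Its sequence was 96.8% repeat-masked and matched itself best at a shift of 234 bp (65.9% identity, against a median of 31.9% over all shifts), which is the unit length of the mouse major satellite that surrounds the centromeres. The adjacent site (chr9:3018501-3023550) also matched itself best at 234 bp. The other 3 of the 5 largest gaps were at chr9:3023601-3077700 (231192, 326256 and 270181 against 5600, 3967 and 3043), chr14:19415151-19420250 (163744, 284125 and 217222 against 5067, 3013 and 2752) and a site of 1.35 kb within Chl1, a neural adhesion gene (chr6:103648501-103649850), at 108819, 224293 and 161658 against 3358, 2044 and 2722. They were 63.3%, 85.3% and 46.9% repeat-masked.

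Further down among the largest gaps were zinc-finger genes on chromosome 4. The site over Zfp992 and Zfp981 (chr4:146424851-146557700) was at 22615, 22104 and 17286 counts of H3K9me3 and 427, 218 and 228 of H3K27me3. The site at Zfp991 (chr4:147144801-147252850) was at 18855, 17757 and 14162 against 292, 218 and 166. The paralogues of this cluster are alike in sequence, so some of these reads may belong to a neighbour. Another was on chromosome 7 in the imprinted Prader-Willi region, over Snhg14 (chr7:59672101-59807750), a long non-coding transcript that hosts small nucleolar RNAs, at 18798, 12597 and 14336 against 226, 198 and 91.4. All 17 annotated Snord116 genes, small nucleolar RNAs of the same region, lay in 1 further H3K9me3-higher site (chr7:59857001-59906050) at 6339, 4082 and 4795 counts against 66, 62.6 and 33.8.

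H3K27me3 lay near genes and H3K9me3 away from them. Of H3K27me3-higher sites 10.4% (Wilson 95% interval 10.25 to 10.62) were within 1 kb of the start site of a protein-coding transcript, and of H3K9me3-higher sites 1.202% (1.141 to 1.265). These intervals cover counting error only, since PCR copies of a molecule were not told apart and neighbouring sites are not independent. By base pairs the shares were 8.15% and 0.758%, beside 2.499% of the autosomal genome. The median distance to a start site was 30.5 kb and 218 kb. In gene bodies lay 46.2% of the H3K27me3-higher and 20.3% of the H3K9me3-higher sites, and on coding exons 13.6% and 1.96%. By base pairs 44.96% and 19.93% lay in gene bodies, beside 40.25% of the autosomal genome, so the H3K27me3 share is near that of the genome. Coding bases made up 2.26% and 0.673%, beside 1.403%. By repeat masking the order turned: 21.5% of H3K27me3-higher and 58.1% of H3K9me3-higher base pairs were masked, and 33.5% of the genome.

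Base composition moved with the mark along whole chromosomes. The median GC content of a site was 45.2% for H3K27me3 and 42.7% for H3K9me3. The 2376 windows of 1 Mb were split into 5 groups of about equal size by GC content. The H3K27me3 share of the covered base pairs had a median of 1.65% in the group with the lowest GC content and of 91.2% in that with the highest. The median covered length rose from 1.93 to 161 kb per window for H3K27me3 and fell from 132 to 14 kb for H3K9me3. Among chromosomes, 19, 11 and 9 had the largest H3K27me3 shares (77.3%, 76.3% and 69.8%) and 12 the smallest (42.95%). Both marks could lie on CG-rich DNA. Of 41499 windows of 1 kb with at least 30 CG, 36.4% were mostly H3K27me3 and 24.3% mostly H3K9me3. These were different DNA, 10.3% repeat-masked in the former and 85.8% in the latter. GC content also sets how well PCR and Tn5 recover a fragment, and its part in these shares was not tested.

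**Figure D2:**
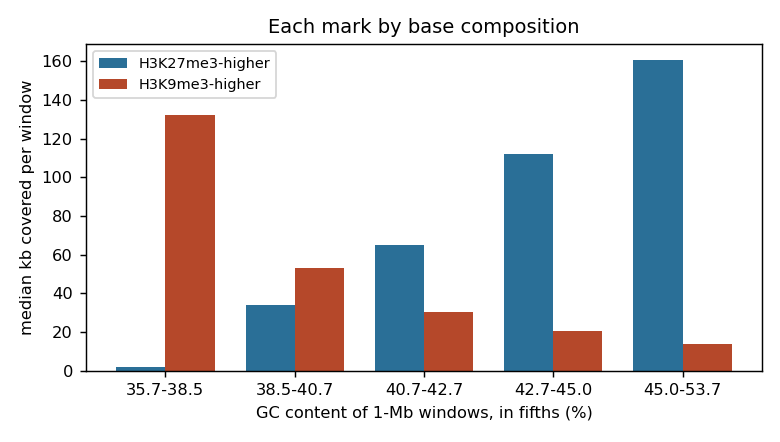
Median length covered by H3K27me3-higher and H3K9me3-higher sites per 1-Mb autosomal window (kb), with the 2376 windows in 5 groups of GC content (%). H3K27me3 goes from 1.93 to 161 kb and H3K9me3 from 132 to 14 kb between the lowest and the highest group.

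Polycomb targets were covered almost without exception. All 78 non-blood developmental regulators and all 39 signalling genes of development (such as Wnt and Hedgehog ligands) had an H3K27me3-higher site at a promoter, and none had an H3K9me3-higher one. The background is 45.6% and 5.45% of all 20722 protein-coding genes, and 81 genes had both. Most of the developmental genes were covered from end to end, with a median of 100% of the gene. Lhx2 (chr2:38330401-38387350) was at 11214, 14145 and 14788 against 7.27, 62.9 and 139. Wnt3a, a ligand that maintains progenitors in the embryo, lay in a site (chr11:59247701-59314950) at 8350, 10702 and 9877 against 45.5, 116 and 172. Wnt1 was at 6374, 8328 and 6879 against 23.6, 13.8 and 56.5.

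Of 39 Hox genes 36 (92.3%) had H3K27me3 at a promoter, beside 45.6% of all genes. Hoxa5 was the exception with H3K9me3, in a small site at its promoter (chr6:52203451-52204500) at 36.4, 20.7 and 28.2 counts of H3K9me3 and 12.4, 5.01 and 6.77 of H3K27me3. This site lies among the H3K27me3-higher sites of the Hoxa cluster. Its counts are low, and the lowest H3K9me3 library was less than double the highest H3K27me3 library. Of 53 keratin genes, which build the filaments of epithelia and hair, 38 (71.7%) had H3K27me3 at a promoter and none had H3K9me3. The shares over all genes were 45.6% and 5.45%. Krt1 and Krt77 shared a site at 870, 1525 and 1403 against 3.64, 23.6 and 41.1.

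**Figure D3:**
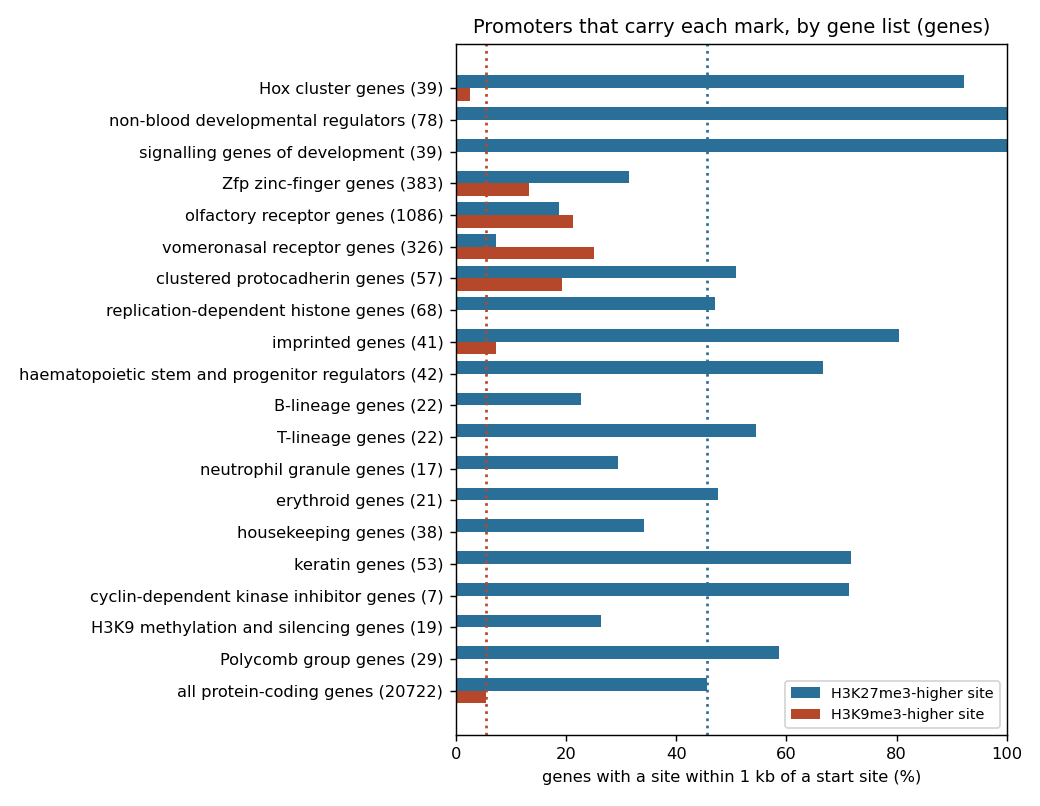
Share of the genes of each list (n in brackets) with an H3K27me3-higher or an H3K9me3-higher site within 1 kb of a start site (%). Dotted lines mark all protein-coding genes (45.6% and 5.45%). The developmental and signalling lists reach 100% for H3K27me3, and the olfactory and vomeronasal receptors are the only lists of the plot in which more promoters have H3K9me3 (for olfactory receptors the order turns with promoters of 250 bp).

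The genes of blood itself carried H3K27me3 on part of their promoters and H3K9me3 on none. Of 42 regulators of stem and progenitor cells 28 (66.7%) had H3K27me3 at a promoter and none H3K9me3, beside 45.6% and 5.45% of all genes. The mark covered a median of 4.53% and a mean of 21.4% of the gene, beside 1.003% and 15.8% over all protein-coding genes. Coverage differed widely between the 42 genes, from none at Spi1 to 75.97% at Bmi1 and 100% at Gfi1, Cebpa and Cebpe. Gata2, which maintains stem cells, had a site of 11.3 kb (chr6:88191401-88202650) at 1187, 1762 and 1210 counts of H3K27me3 and 0, 33.4 and 20.5 of H3K9me3. Cd34, a surface protein of progenitors, had one of 3.35 kb at 252, 163 and 191 against 0, 11.8 and 10.3, and Bmi1, a Polycomb subunit needed for self-renewal, one of 17.4 kb at 4532, 4501 and 5278 against 3.64, 15.7 and 30.8. Kit, whose protein was used to enrich the cells, was also among the 28, but with a site of only 0.9 kb. It was at 18.98, 25.05 and 10.15 counts of H3K27me3 against 0, 0 and 0. So small a site says only that the H3K27me3 libraries had more reads there than the H3K9me3 libraries. Spi1, the gene of Pu.1, was free of members. The marks are not a measure of expression, and which of the gated cell types carried them cannot be told from bulk libraries.

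Of T-lineage genes 12 of 22 (54.5%) had H3K27me3 at a promoter, of erythroid genes 10 of 21 (47.6%), of neutrophil granule genes 5 of 17 (29.4%) and of B-lineage genes 5 of 22 (22.7%), beside 45.6% of all genes. The lists are short and differences between them were not tested. Gata3, the factor of T helper cells, was at 8114, 7647 and 8883 against 12.7, 47.2 and 79.6. Pax5, which commits cells to the B lineage, was at 5340, 7270 and 7795 against 16.4, 40.3 and 110, and Ebf1, which acts before it, at 3754, 3907 and 4567 against 14.5, 29.5 and 41.1. The band 3 gene Slc4a1 of red cells was at 3069, 3250 and 2935 against 12.7, 53.1 and 103, and the gelatinase gene Mmp9 of neutrophils at 2898, 3545 and 2867 against 25.5, 43.3 and 82.1. These genes were named for the size of this gap.

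Housekeeping genes also had H3K27me3-higher sites at 13 of 38 promoters (34.2%), below the 45.6% of all genes, and the sites were small. At Hsp90ab1, a chaperone gene, the 3 libraries were at 104, 56.4 and 50.8 against 0, 0 and 0, and no housekeeping gene was covered over 50% or more of its length. A site of that size in this table says that the H3K27me3 libraries had more reads there than the H3K9me3 libraries, and not that Polycomb chromatin was present. Both the tumour suppressor locus Cdkn2a (5293, 4592 and 7175 against 16.4, 41.3 and 74.4) and the Polycomb gene Cbx8 (9739, 11426 and 10479 against 25.5, 43.3 and 89.8) had wide sites. Of 7 cyclin-dependent kinase inhibitor genes 5 (71.4%), and of 29 Polycomb group genes 17 (58.6%), had H3K27me3 at a promoter. Of 19 genes of H3K9 methylation and silencing 5 (26.3%) did, beside 45.6% of all genes. These lists are short, and differences from that share were not tested.

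Zfp zinc-finger genes, many of which encode KRAB repressors of retroelements, carried both marks. H3K27me3 lay on the promoters of 120 of 383 (31.3%) and H3K9me3 on those of 51 (13.3%), beside 45.6% and 5.45% of all genes. The H3K27me3 share was thus below that of all genes. H3K9me3 overlapped 183 of the genes themselves (47.8%, beside 20.3% of all genes). H3K9me3 covered at least 50% of 74 genes and H3K27me3 of 10, beside 465 and 2574 of all 20722 genes. In 40 of the 383 genes there was H3K27me3 at a promoter and H3K9me3 in the gene, beside 1653 of all 20722 genes. In the profile around start sites, 26.6% of Zfp genes were covered by H3K27me3 and 5.74% by H3K9me3 in the first 250 bp, and 4.18% and 23.2% at 8 kb behind the start. The coding sequence moved with this. Of 35 Zfp genes with 4 or more copies of the linker word shown above, 32 (91.4%) had at least 50% of the coding bases in H3K9me3-higher sites. With 1 to 3 copies 38 of 67 (56.7%) did, and with none 71 of 281 (25.3%).

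Windows of the whole genome that hold the word were counted too. The word was taken from Zfp coding exons, so these windows can be the same exons and are not separate support. Of 585 windows of 1 kb with it, 69.6% were mostly H3K9me3 and 2.39% H3K27me3, and of 124 windows with 4 or more copies 110 (88.7%) were H3K9me3 and 1 was H3K27me3. Of all windows 8.16% and 9.35% were. The word was searched on both strands, and a match is a description of the sequence. Zfp503, a developmental factor without a KRAB domain, was one of the exceptions on the other side, covered whole by H3K27me3 (chr14:21979101-21998050) at 4044, 5307 and 4384 against 0, 45.2 and 28.2.

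**Figure D4:**
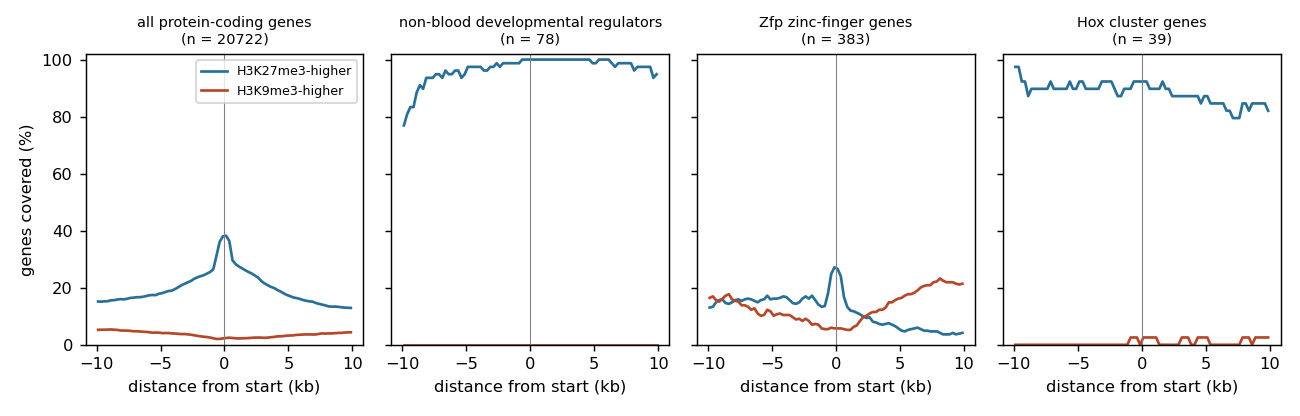
Share of genes (%) covered by H3K27me3-higher or H3K9me3-higher sites in steps of 250 bp around the start site (distance in kb, positive into the gene), for all protein-coding genes, developmental regulators, Zfp genes and Hox genes. In Zfp genes H3K27me3 is at 26.6% at the start and H3K9me3 at 23.2% at 8 kb, and developmental regulators stay at 96.2% H3K27me3 at 8 kb.

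Receptor families that sense odours and pheromones, which blood cells do not use, lay in both territories. Of 1086 olfactory receptor genes 203 (18.7%) had H3K27me3 at a promoter and 230 (21.2%) H3K9me3, beside 45.6% and 5.45% of all genes. With promoters taken as 250 bp around a start this order turned, with 16.02% and 12.98% of genes. With promoters of 1 kb, 24 of 326 vomeronasal receptor genes (7.36%) had H3K27me3 and 82 (25.15%) H3K9me3. In both families the H3K27me3 share was below that of all genes and the H3K9me3 share above it. Olfr784 had H3K9me3 (chr10:129387701-129397200) at 555, 557 and 511 against 11.6, 7.51 and 15.2, and Olfr288 was covered over 97.6% of its length by H3K27me3 (chr15:98158551-98194250) at 3373, 3811 and 4164 against 1.82, 62.9 and 48.8. Vmn2r63 was at 1349, 985 and 1147 counts of H3K9me3 and 18.2, 35.1 and 8.46 of H3K27me3. Clustered protocadherin genes, which give neurons their identity, had both marks, at 29 (50.9%) and 11 (19.3%) of 57 promoters. Of 68 replication-dependent histone genes 32 (47.1%) had H3K27me3 at a promoter and none H3K9me3. Both H3K27me3 shares are near the 45.6% of all genes.

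Imprinted genes, of which only the maternal or the paternal copy is active, had sites of both marks. Of 41 genes 33 (80.5%) had H3K27me3 at a promoter and 3 (7.32%) H3K9me3, beside 45.6% and 5.45% of all genes. A site goes to the higher mark only, so the 33 need not be free of H3K9me3. The site at Nnat was at 313.5, 408 and 406 counts of H3K27me3 against 105.5, 84.6 and 104 of H3K9me3. The one at Igf2 was at 2889, 3837 and 2901 against 18.2, 21.6 and 68.0. In 10 of the 41 there was H3K27me3 at a promoter and H3K9me3 in the gene, beside 1653 of all 20722 genes. Peg3, expressed from the paternal copy, had H3K27me3 at its promoter (chr7:6730351-6732400) at 134.5, 96.4 and 152 against 29.1, 26.6 and 35.9. Along its body it had H3K9me3, most at chr7:6709101-6713600, at 76.4, 122 and 113 against 1.65, 2.5 and 0. Before Inpp5f, outside the gene, lay a fully repeat-masked H3K9me3-higher site (chr7:128604701-128609850) at 185, 228 and 151 against 11.6, 15 and 15.2, and the promoter itself was H3K27me3-higher. Usp29 and Snrpn had a promoter site of each mark, and Zrsr1 had H3K9me3 only, at 25.5, 23.6 and 20.5 against 8.25, 2.5 and 5.08. Igf2r (chr17:12747001-12784100), which clears the growth factor Igf2, was at 2908, 3334 and 3772 counts of H3K27me3 against 60, 106 and 155, and Grb10 at 4358, 3969 and 5487 against 94.5, 68.8 and 159. These libraries do not separate the parental copies.

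Fbp1 and Fbp2, enzymes of gluconeogenesis that are neighbours on chromosome 13, had promoter sites of different marks. Fbp1 had a small H3K27me3-higher site at its promoter (chr13:62887051-62888000) at 23.1, 17.5 and 33.8 against 0, 0 and 5.13. Fbp2 had H3K9me3 at its promoter (chr13:62857201-62861050) at 76.4, 87.5 and 149 against 3.3, 5.01 and 5.08, and a weak H3K27me3-higher site further in the gene. The counts of Fbp1 are small. The H3K27me3 libraries are of Daxx F/F and the H3K9me3 libraries of Daxx +/+ mice. At this locus the paper reports less H3K27me3 after Daxx loss, and more H3K9me3 over Fbp2. Genotype may therefore enter the contrast here, which was not tested.

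To see whether the same places carried the marks in other libraries, the members were compared with the 11 tables that share no library with the rule. These tables hold 48 libraries. They list only sites that had passed the test of genotypes behind each table. Shares below are of the sites that overlapped members of 1 mark only, beside 46.4% of listed sites in the contrast that were H3K27me3-higher. Sites on neither mark were many: 20858 of 57645 for H3K27me3 and 14923 of 40105 for H3K9me3 at 8 w.p.i., 74332 of 134001 for H3K27me3 and 86372 of 150482 for H3K9me3 at 24 w.p.i., and 29316 of 57306 for H3K9me3 at 3 w.p.i. The WT H3K27me3 libraries at 8 w.p.i. come from the mice whose H3K9me3 libraries were used in the rule, so they are other libraries but not other animals. The Daxx-KO H3K9me3 libraries at 8 w.p.i. share genotype, time and replicate numbers with the H3K27me3 libraries of the rule. They cannot be taken as other animals either. In the H3K27me3 table of DKO (Daxx F/F Pu.1 F/F) and WT mice at 8 w.p.i., 36475 sites lay on H3K27me3-higher members and 285 on H3K9me3-higher ones, so that 99.2% of those on 1 mark were on the former. In the H3K9me3 table of DKO and Daxx-KO mice 24758 lay on H3K9me3-higher and 411 on H3K27me3-higher members (1.63% on the latter). For H3K27me3 at 24 w.p.i., 57075 sites lay on H3K27me3-higher and 2547 on H3K9me3-higher members (95.7%). For H3K9me3 this share was 4.86% at 3 w.p.i. but 26.4% at 24 w.p.i. Most sites of H3K27ac, a mark of active chromatin, lay on neither (86261 of 101434 at 3 and 160746 of 193657 at 24 w.p.i.), as did most of H3.3 (97462 of 141512 and 187962 of 255404) and Pu.1 (107700 of 156645 and 184745 of 253825). Of the rest, H3K27ac sites were on H3K27me3-higher members in 77.7% at 3 and 82.2% at 24 w.p.i., H3.3 sites in 67.03% and 65.5%, and Pu.1 sites in 67.3% and 68.1%.

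**Figure D5:**
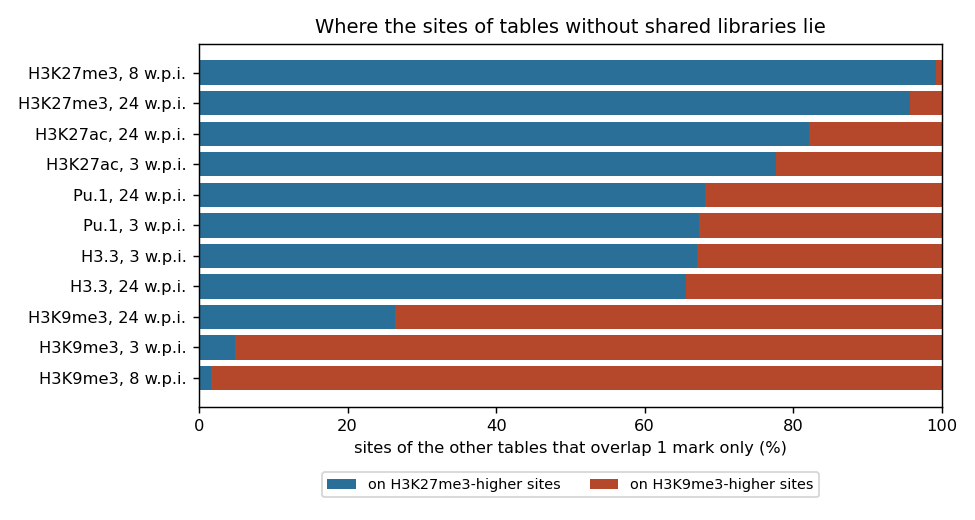
Share (%) of the autosomal sites of each other table that overlap only H3K27me3-higher or only H3K9me3-higher members. Sites on neither or both are left out. H3K27me3 tables lie at 99.2% and 95.7%, H3K9me3 tables at 1.63% to 26.4%, and H3.3, Pu.1 and H3K27ac tables between 65.5% and 82.2%.

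The height of the signal was compared within each library as the log2 ratio of the mean normalized count per kb at sites on H3K27me3-higher members to that at sites on H3K9me3-higher members. The exact two-sided sign-flip permutation test over libraries was used, whose smallest p is 0.03125 for 6 libraries and 0.125 for 4. For H3K9me3 at 8 w.p.i. the ratios of Daxx-KO libraries were -1.50, -1.62 and -1.77 and those of DKO libraries -0.43, -0.89 and -0.03, all below 0 (mean -1.04 ± 0.71, SD, n = 6, exact permutation p = 0.03125, adjusted 0.229). The 4 libraries each at 3 and 24 w.p.i. were also all below 0, with means of -1.72 ± 0.42 and -1.64 ± 0.60 (SD, n = 4). The H3K27me3 libraries at 24 w.p.i. were all above 0 (1.40 ± 0.56, SD, n = 4). For both these marks the permutation p with 4 libraries was 0.125, the smallest possible. For H3K27me3 at 8 w.p.i., however, 1 of 6 libraries was above 0 and the mean was -0.82 ± 1.05 (SD, n = 6, exact permutation p = 0.156, adjusted 0.246). With the median over sites in place of the mean all 6 lay above 0, with a mean of 1.00. The median also moved 1 H3K9me3 library above 0 in each of the 8- and 24-w.p.i. tables, replicate 3 of DKO (17.02 against 15.7 counts per kb) and replicate 2 of Daxx-KO (63.9 against 61.3). The cause of these shifts was not tested.

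H3K27ac had a mean ratio of 0.58 ± 0.30 (SD, n = 4) at 24 w.p.i. and 0.50 ± 0.66 at 3 w.p.i., where 3 of 4 libraries were above 0. H3.3 was at -0.56 ± 0.24 at 3 w.p.i., below 0 in 4 of 4, and at 0.02 ± 0.06 at 24 w.p.i. Pu.1 was at -0.23 ± 0.30 and -0.02 ± 0.18. After adjustment over the 11 tables by Benjamini-Hochberg no ratio passed 0.05, the smallest adjusted value being 0.229, and the smallest unadjusted p that 4 libraries allow is itself above that threshold.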

How the data were processed

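CUT&Tag libraries of HSPCs were aligned to mm10. The submitters' processing notes name CASAVA 1.8.4, cutadapt 1.13, STAR 2.5.3 and bedtools. Per the file headers, the authors counted reads with diffReps 1.55.6 in windows of 600 bp at steps of 50 bp (fragment size 100 bp), kept windows with a negative binomial p under 0.0001, and merged them into sites. For each site the deposited table holds the normalized count of every library, its reads divided by a constant of that library given in the file header, which is the signal used here (an authors' own normalized count, not raw). Group averages of this signal were deposited by the authors as well and only checked against the libraries. The columns with the direction, log2 fold change, p-values and window positions hold the authors' own comparisons and were not used.

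The rule was applied to the 3 and 3 libraries of the contrast. Genes were taken from GENCODE M21 and sequence and RNA genes from RefSeq GRCm38.p6, whose chromosomes are those of mm10. A promoter was 1 kb on either side of a start site of a protein-coding transcript. In 1-kb windows a mark was counted where it covered at least 500 bp. The tables of the series number 15, of 62 libraries in all. Besides the contrast itself, 3 were not used because they share libraries with it. Ratios were formed within a library, since tables were normalized separately. Shares have Wilson 95% intervals. Python 3.11.15 was used with numpy 2.4.6, pandas 2.3.3, scipy 1.17.1 and matplotlib 3.10.9, and 9 of 9 checks of the functions on 20000 simulated sites passed.

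Genes named were Daxx, Fbp1, Fbp2 and Spi1, up to 3 genes per list for the mark that more of its genes carry and up to 2 for the other, ranked by the gap between marks, and for each mark the 5 members with the largest gap and the 5 widest runs. Other genes and further sites were named after their values were seen. Not all of them are named, and 1 item is not reported here. The word in zinc-finger exons was found by counting words of 14 bases. The members and the 19 lists were chosen with earlier results of these data known. The replicates are separate libraries of different mice as labelled. As alternatives, libraries were left out, separation, promoter width, overlap and summary were changed, and low counts, promoters or merged sites were treated differently.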

Additional observations from a re-analysis of the deposited data

Results flagged for a closer look

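Chromosomes X and Y were left out of the report and also held sites that separated the marks. On X, 10937 sites had all 3 H3K27me3 libraries higher and 11240 all 3 H3K9me3 libraries higher, close to an even split. On Y, 7 sites were higher for H3K27me3 and 459 for H3K9me3. At Y sites the medians of the H3K9me3 libraries were 18.2, 19.7 and 15.4 normalized counts and those of the H3K27me3 libraries 1.65, 0 and 0. The study used mice of both sexes, the labels do not give the sex of each mouse, and sex, mark and genotype cannot be told apart there.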

How the results depend on the processing

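No alternative moved a site from one mark to the other. Only rescaling the libraries to the same median could have done so, and it kept 219786 members with their mark. For the other alternatives this outcome was fixed by the rule. Leaving out 1 library can only add sites, and gave 102800 to 102959 H3K27me3-higher and 117969 to 118273 H3K9me3-higher sites. Merging sites of one mark within 1 kb lowered the H3K27me3 count to 61122, and a mean of at least 20 counts lowered the H3K9me3 count to 60404. The share of sites at promoters was 8.93% for H3K27me3 and 0.728% for H3K9me3 with promoters of 250 bp, 14.7% and 2.67% with 3 kb, 8.15% and 0.758% by base pairs, and 13.2% and 1.47% at a mean of at least 20, with 10.9% for H3K27me3 at a 2-fold separation. Over all genes, 42.9% and 3.83% of promoters carried each mark with 250 bp, 50.3% and 9.18% with 3 kb, and 43.8% H3K27me3 at a 2-fold separation. Without the Hoxa5 site, which a 2-fold separation removes, no Hox promoter had H3K9me3.

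The libraries of the 2 groups share replicate numbers but not mice. Deviations of same-numbered libraries correlated at 0.03, -0.02 and 0.04, so the numbers do not pair them. Comparing only libraries of the same number (replicate block) gave 102958 and 118241 sites. All 220711 members are among them by construction.

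In other libraries the log2 ratio turned for H3.3 at 24 w.p.i. with an overlap of 50% (-0.0012), for H3.3 and Pu.1 at 3 w.p.i. with the median (0.49 and 0.45), for Pu.1 at 24 w.p.i. with a 2-fold separation (0.017), for H3K27ac at 24 w.p.i. without promoter sites (-0.13), and for H3K27me3 at 8 w.p.i. with the median (1.00) and without promoter sites (0.26). The cause was not tested. For H3K9me3 at 8 w.p.i. it was -0.99 with the median, -1.05 with a 2-fold separation and -1.01 without promoter sites, with an exact permutation p of 0.0625 for each. Leaving out a library of the rule gave -1.04 to -1.02, and without replicate 2 of either mark the p was 0.0625 as well. Sites of few reads limit the weaker members most.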

Other observations

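Other classes of genes are set beside protein-coding genes, of which 50.5% overlapped an H3K27me3-higher site and 19.4% an H3K9me3-higher one. Of 12322 lncRNA genes 42.7% overlapped an H3K27me3-higher site and 16.98% an H3K9me3-higher one, and of 1136 miRNA genes 17.5% and 1.41%. Of 9401 pseudogenes 13.2% and 21.98% did, with more under H3K9me3. Among the 2376 windows of 1 Mb, 483 were covered by H3K27me3 over more than 90% of the marked base pairs and 488 by H3K9me3.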
